A study of Mus musculus with 12 samples.

Results

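Splenic B cells of 2 mouse strains, NOD and NOD.Idd2, are compared here across all genes. The comparison uses 6 of the 12 libraries of the study, chosen by their titles: 3 of NOD B cells and 3 of NOD.Idd2 B cells, all from mice aged 12 weeks with no treatment recorded. NOD mice develop autoimmune diabetes spontaneously and serve as the control. NOD.Idd2 mice share the NOD background and carry the Idd2 locus, a diabetes susceptibility locus of chromosome 9, from B10 mice. The study asks how that locus acts on B cell transcripts. The labels give neither the bounds of the transferred segment, nor how the B cells were isolated, nor whether the libraries come from separate mice, so the p-values below cover the spread between these libraries and nothing wider. The other 6 libraries, from dendritic cells of the same strains, enter only the test of whether the strain effect differed between the cell types and a model of all 12 libraries.

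B cells bind antigen through a surface immunoglobulin, take it up and present its peptides on major histocompatibility complex (MHC) class II molecules, and can mature into antibody-secreting plasma cells. Like nearly all cells they also carry MHC class I molecules, which show peptides from inside the cell to cytotoxic T cells and natural killer cells. In NOD mice, B cells act as antigen-presenting cells for diabetogenic T cells. A congenic strain differs from its background strain by a chromosome segment, and genes in such a segment differ in DNA sequence between the strains.

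The 6 libraries held 40344883 to 44632276 counts each. All 19 genes of a B cell identity list were measured, and they summed to 30232 to 32721 CPM (counts scaled to the size of each library) in NOD and 30796 to 32986 CPM in NOD.Idd2. Transcripts of other spleen cells were present at low levels: T cell genes summed to 144 to 166 CPM in NOD and 120 to 227 in NOD.Idd2, natural killer genes to 37.7 to 50.5 and 26.0 to 42.7, and dendritic cell genes to 27.9 to 30.5 and 27.1 to 33.8. In bulk RNA, fewer cells of a type and less RNA per cell cannot be told apart.

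In each strain the library numbered 3 lay far from the other 2. On the first principal component, which held 63.3% of the variance, the replicate 3 libraries lay at 48.1 and 45.3 and the other 4 between -28.0 and -19.7. The strains were separated on the second component, with 16.1% of the variance. After the strain difference was taken out, 2356 of 15011 genes (15.7%) differed between replicate 3 and the mean of replicates 1 and 2 in the quasi-likelihood test of edgeR (Benjamini-Hochberg adjustment, threshold 0.05), 1010 higher (6.73%) and 1346 lower (8.97%). The strains were therefore compared in a fit of strain alone (the plain fit) and in another that takes the replicate number as a block. Genes given below as called with the block only were not called in the plain fit. A gene is called where its adjusted p is below 0.05 over all genes tested.

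The share of genes that differed in replicate 3 varied between kinds of gene, and most of the genes called were protein-coding. Of 769 processed pseudogenes tested, which are intronless copies of other transcripts, 367 (47.7%) were lower in replicate 3 and 30 higher, with a median log2 difference of -0.93. Of 11745 protein-coding genes 756 (6.44%) were lower and 878 (7.48%) higher, with a median of 0.02. Ribosomal protein genes, a list drawn up after their values were seen, were lower for 72 of 83, with 1 higher and a median of -1.06.

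Rps27, a small ribosomal subunit protein with several such copies, was at 735, 690 and 15.002 CPM in NOD replicates 1 to 3 and at 734, 705 and 15.02 CPM in NOD.Idd2 (log2, replicate 3 minus the others, -5.57, edgeR adjusted p = 1.65e-13). Rps29 was at 97.0, 90.6 and 3.10 CPM in NOD and 115, 104 and 3.13 in NOD.Idd2. Both genes thus sat far lower in the libraries numbered 3 and moved together across strains. The mitochondrial transcript mt-Co2, a subunit of cytochrome oxidase, had 13.9 and 6.47 CPM in NOD replicates 1 and 2, 15.6 and 6.08 in the same NOD.Idd2 replicates, and 0 counts in replicate 3 of both strains, where a count of 0 allows up to 3 counts. Mitochondrial mt-Co3 and mt-Atp6 followed the same pattern, with 0 counts in both replicate 3 libraries.

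In the other direction Ifi204, an interferon-inducible DNA sensor, was at 22.6, 26.8 and 70.8 CPM in NOD and 24.4, 25.0 and 64.9 CPM in NOD.Idd2 (log2 1.46, edgeR adjusted p = 1.09e-08). H2-Q1, a class I-like gene, was at 2.45, 3.32 and 46.2 CPM and at 4.03, 3.53 and 39.3 CPM. Neither gene was called between the strains in either fit.

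**Figure D1:**
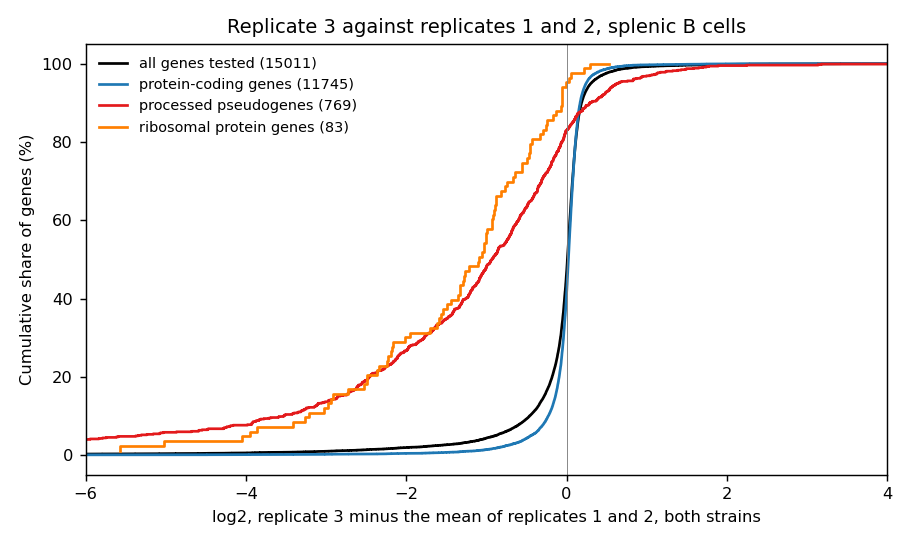
Cumulative share of genes (y axis, %) against the log2 difference between replicate 3 and the mean of replicates 1 and 2 in both strains (x axis). The lines stand for all 15011 genes tested, 11745 protein-coding genes, 769 processed pseudogenes and 83 ribosomal protein genes, and the last 2 lie to the left of the others over most of the range, with medians of -0.93 and -1.06.

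Between the strains, 24 of 15011 genes (0.160%) were called in the plain fit, 11 as higher (0.0733%) and 13 as lower (0.0866%) in NOD.Idd2, while 961 had an unadjusted p under 0.05. The median log2 fold change (NOD.Idd2 minus NOD) over all genes was 0.01, and 52.6% of genes lay above 0. With the block 156 genes (1.04%) were called, 75 higher (0.500%) and 81 lower (0.540%). The 24 genes were all among the 156, which makes 15.4% of them. With a term for replicate 3 alone, which assumes no match between replicates 1 and 2 of the strains, 74 genes (0.493%) were called. All 24 were among those 74, and all 74 were among the 156. The common biological coefficient of variation, the spread between replicates beyond counting noise, was 15.6% in the plain fit and 4.55% with the block.

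Groups of CPM values did not overlap for 1923 genes (12.8%), 963 higher (6.42%) and 960 lower (6.40%). Of the 24 genes of the plain fit 23 changed by more than 1.5-fold, as did 62 of the 156. Thus most of the additional calls were of small changes. Among the 156 genes 43 (27.6%) were also called between replicate 3 and the others, which is 1.83% of those 2356.

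**Figure D2:**
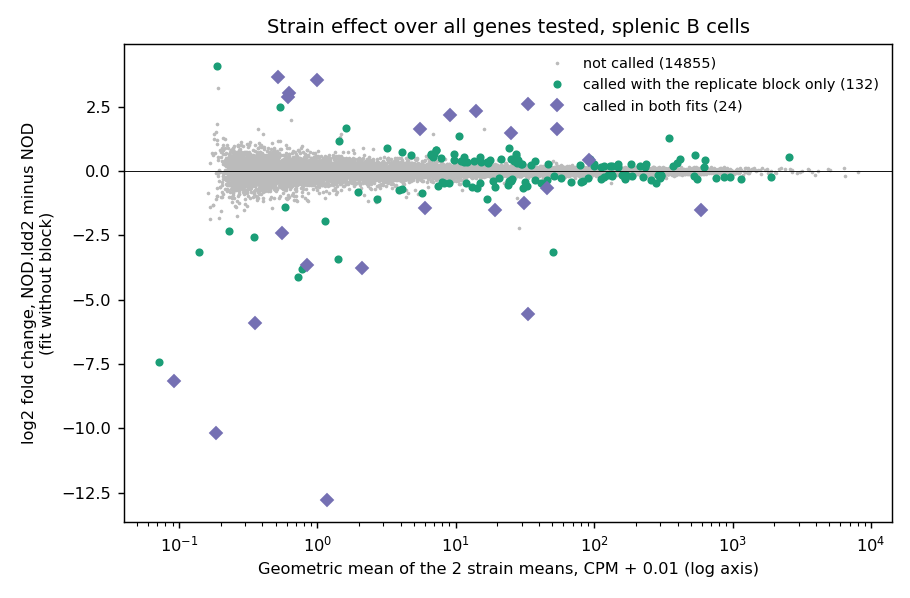
Log2 fold change of each gene between the strains in the plain fit (y axis, NOD.Idd2 minus NOD) against the geometric mean of the strains' mean CPM plus 0.01 (x axis, log scale). Diamonds mark the 24 genes called in both fits, circles the genes called with the replicate block only, and dots all other genes.

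The calls were unevenly spread over the genome. On chromosome 9, which holds the Idd2 locus, 10 of 867 tested genes were called in the plain fit and 26 (3.00%) with the block. All 10 lay between 37227585 and 48431959 (GRCm38), a stretch with 104 tested genes, of which 22 were called with the block, 9 higher and 13 lower. Chromosome 17 had 3 calls in the plain fit and 28 of 733 (3.82%) with the block. Of these, 23 of 286 tested genes lay between 30624354 and 50699443, which spans the MHC, with 14 higher and 9 lower. A stretch of chromosome 3 from 61361638 to 67463926 had 6 calls among 20 tested genes. On chromosome 15 from 81992523 to 82212815, 3 of 5 tested genes were called and all were higher: Desi1, Srebf2 and Shisa8. These last 3 chromosomes are not the one of the named locus. Each stretch begins and ends at a called gene, so its share of calls is raised by construction. Over all genes the share was 0.160% in the plain fit and 1.04% with the block. Further stretches with the block had calls for 3 of 4 tested genes on chromosome 10, and for 4 of 18 and 5 of 72 on chromosome 12.

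**Figure D3:**
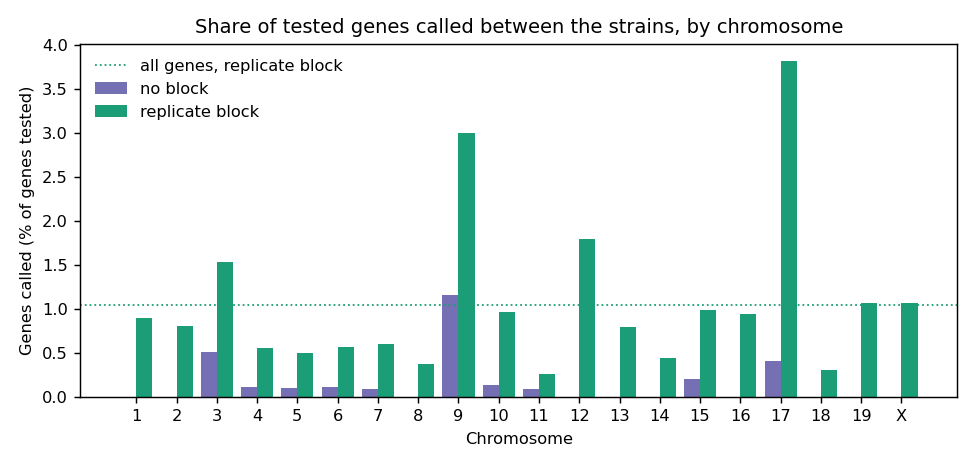
Share of tested genes called between the strains (y axis, %) on each chromosome (x axis), in the plain fit and with the replicate block. Bars start at 0, the dotted line is the share over all genes with the block (1.04%), and chromosomes 9 (3.00%) and 17 (3.82%) stand highest with the block.

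The strongest decrease was in Jhy (chromosome 9, 40894849 to 40964118, minus strand), known for its part in ependymal cell and brain ventricle development. It was at 74.5, 75.7 and 83.8 CPM in NOD and at 0, 0 and 0.0234 CPM in NOD.Idd2. Over the libraries this was 9960 counts against 1, a ratio of 9754 (95% interval 1750 to 385313, covering counting error only) (edgeR adjusted p = 1.98e-06). The transcript was thus close to absent from each NOD.Idd2 library. A provisional gene on the same strand overlaps it, so reads may be shared.

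Genes beside Jhy fell too. Crtam (40969691 to 41004628), a surface receptor of activated lymphocytes, was at 8.68, 7.85 and 6.58 CPM in NOD and 0.817, 0.453 and 0.421 CPM in NOD.Idd2 (log2 -3.77, SE 0.27, edgeR adjusted p = 0.00295). Its ligand gene Cadm1 lies further along the chromosome and was at 1.08, 0.713 and 1.03 CPM against 0.371, 0.381 and 0.304 CPM. Cadm1, chosen after its values were seen, was called only with the block (log2 -1.40, SE 0.28, edgeR adjusted p = 0.0464, against 0.249 in the plain fit). Its call was lost with the term for replicate 3 (0.0825). Values of Crtam and of Cadm1 did not overlap between the strains.

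Ubash3b (41011098 to 41161697), a phosphatase that dampens antigen receptor signalling, was at 53.6, 41.1 and 49.7 CPM in NOD and 20.8, 18.3 and 21.6 CPM in NOD.Idd2 (log2 -1.25, SE 0.11, edgeR adjusted p = 0.0111). It was the only one of 25 tested B cell receptor signalling genes to be called in either fit, and the list had 15 genes above 0. Without NOD.Idd2 replicate 1 its adjusted p was 0.0701 in the plain fit and without NOD.Idd2 replicate 2 it was 0.0810. Usp2 (44067021 to 44095627), a deubiquitinating enzyme, was at 2.69, 3.17 and 2.94 CPM in NOD and at 0.149, 0.238 and 0.304 CPM in NOD.Idd2 (log2 -3.65, SE 0.25, edgeR adjusted p = 0.00264). Both genes separated the strains completely.

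Further genes of the stretch fell with the block only. The endocytic sorting receptor gene Sorl1, chosen after its values were seen, was at 1233, 1261 and 1328 CPM in NOD and 1039, 989 and 1094 CPM in NOD.Idd2 (log2 -0.29, SE 0.04, edgeR adjusted p = 0.00220, against 0.249 in the plain fit). Gramd1b, which moves cholesterol from the plasma membrane to the endoplasmic reticulum, was at 44.7, 50.7 and 49.4 CPM and at 33.5, 35.01 and 35.9 CPM (log2 -0.47, SE 0.04, edgeR adjusted p = 3.43e-04 with the block and 0.0587 without). The groups did not overlap for either gene.

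Other genes of the same chromosome stretch rose. Slc37a2 (37227585 to 37255738), a sugar phosphate exchanger of the endoplasmic reticulum, was at 27.5, 29.5 and 34.9 CPM in NOD and 92.5, 103 and 92.4 CPM in NOD.Idd2 (log2 1.65, SE 0.10, edgeR adjusted p = 0.00163). Tmprss13 (45319100 to 45347581), a membrane-bound serine protease, was at 0.135, 0.148 and 0.141 CPM in NOD and 2.03, 1.57 and 1.82 CPM in NOD.Idd2 (log2 3.65, SE 0.22, edgeR adjusted p = 0.00163). That is 18 counts over the NOD libraries against 226, so the NOD level rests on few counts.

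A cluster of Nxpe genes rose at the far end. Nxpe2 (48318006 to 48353454) was at 12.5, 12.8 and 15.2 CPM in NOD and 77.0, 81.1 and 86.0 CPM in NOD.Idd2 (log2 2.59, SE 0.09, edgeR adjusted p = 1.11e-04). Nxpe4 (48162023 to 48400025) was at 0.135, 0.320 and 0.212 CPM and at 1.78, 1.67 and 1.45 CPM (log2 2.87, SE 0.30, edgeR adjusted p = 0.0255). The pseudogene Nxpe1-ps (48418321 to 48431959) was at 2.74, 3.25 and 3.36 CPM and at 10.2, 9.20 and 9.90 CPM (log2 1.65, SE 0.11, edgeR adjusted p = 0.00264). All 3 separated the strains. Nxpe2 lies within Nxpe4 on the opposite strand and the family members resemble each other, so the split of reads between them is uncertain. In the plain fit Nxpe4 was no longer called when any 1 of the 6 libraries was left out (adjusted p 0.0545 to 0.170).

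Hspa8 (40800984 to 40810087), the constitutive cytosolic chaperone of the Hsp70 family, also rose, but only with the block. It was at 300, 246 and 127 CPM in NOD and at 595, 702 and 330 CPM in NOD.Idd2 (log2 1.29, SE 0.08, edgeR adjusted p = 7.60e-06 with the block and 0.726 without). Replicate 3 was lower than replicates 1 and 2 in both strains (log2 -1.04), and within each number NOD.Idd2 was higher. With both replicate 3 libraries left out of the plain fit Hspa8 was called (adjusted p = 0.00120). It was the only call among 20 tested cytosolic heat shock chaperones, of which 7 lay above 0 (median log2 -0.05). Hsp90aa1, the inducible Hsp90, was at 356, 316 and 174 CPM in NOD and 300, 358 and 132 in NOD.Idd2, with the strains overlapping.

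**Figure D4:**
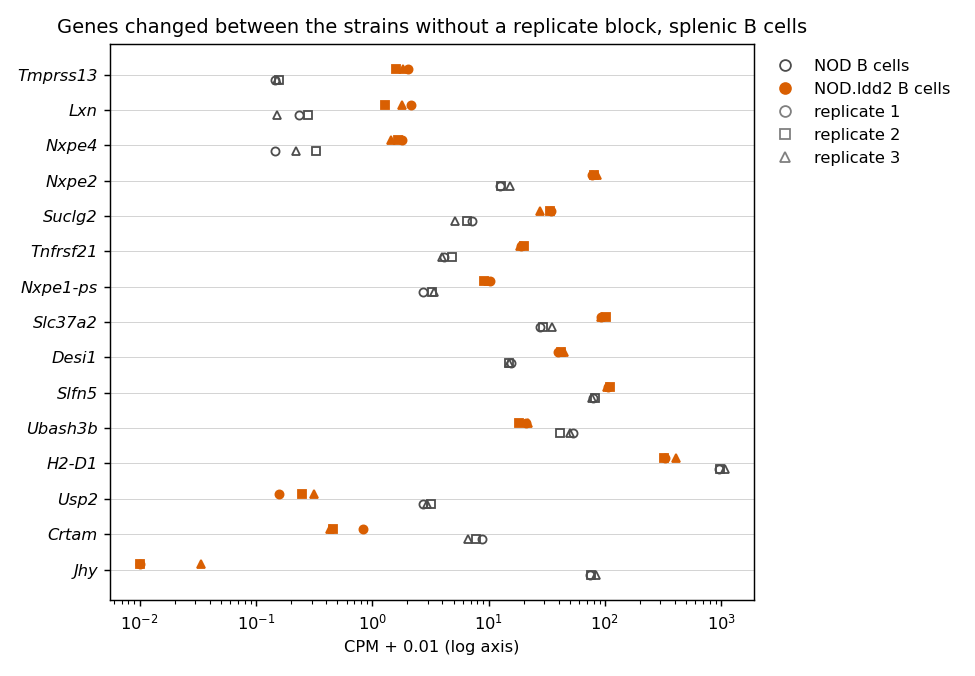
CPM plus 0.01 (x axis, log scale) of the 15 genes with settled symbols called between the strains in the plain fit (y axis), one symbol per library. Open symbols are NOD, filled symbols NOD.Idd2, shapes give the replicate number, and for each gene the strains do not overlap.

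On chromosome 17 the class I genes moved in different directions. H2-D1 (35262730 to 35267499), a classical class I heavy chain, was at 959, 973 and 1068 CPM in NOD and 328, 323 and 405 CPM in NOD.Idd2 (log2 -1.51, SE 0.10, edgeR adjusted p = 0.00223). H2-K1 (33996017 to 34000347), another classical heavy chain, was at 465, 535 and 623 CPM in NOD and 651, 714 and 826 CPM in NOD.Idd2 (log2 0.44, SE 0.03, edgeR adjusted p = 4.51e-05 with the block and 0.725 without). For H2-K1 each number was higher in NOD.Idd2, and replicate 3 was the highest of each strain.

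The non-classical gene H2-Q6 (35424850 to 35430055) was at 129, 154 and 170 CPM in NOD and at 6.19, 5.82 and 38.3 CPM in NOD.Idd2 (log2 -3.46, SE 0.36, edgeR adjusted p = 7.40e-04 with the block and 0.540 without). H2-Q7 had the same shape, at 53.5, 66.2 and 65.5 CPM in NOD and 2.28, 1.60 and 36.1 CPM in NOD.Idd2, and was not called (edgeR adjusted p = 0.0572 with the block). For both genes NOD.Idd2 replicate 3 lay well above the other 2 NOD.Idd2 libraries, and below every NOD library. In those replicate 3 libraries H2-Q1 and H2-Q2 were also high, the latter at 2.83, 2.31 and 7.17 CPM in NOD and 3.59, 2.98 and 27.1 CPM in NOD.Idd2. With both replicate 3 libraries left out of the plain fit H2-Q6 (edgeR adjusted p = 2.29e-07) and H2-Q7 were called lower in NOD.Idd2. Class I genes are near copies of each other, so counts of single genes are uncertain. Why replicate 3 stood apart for these genes was not tested.

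Over the whole class I pathway list the calls, in either fit, were all of heavy chain genes. Of 19 tested genes 9 lay above 0, with a median log2 of -0.01 beside 0.01 over all genes, and 1 was called higher and 2 lower with the block, against 0.500% and 0.540% of all genes. Values did not overlap for 5 of the 19, 4 lower and 1, H2-K1, higher, against 6.40% and 6.42% of all genes. The light chain gene B2m was at 827, 811 and 791 CPM in NOD and 842, 791 and 801 in NOD.Idd2. The peptide transporter gene Tap1 was at 189, 216 and 227 CPM and at 185, 200 and 207 CPM. Both overlapped between the strains. None of 13 class II presentation genes was called in either fit.

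Next to the class I genes lie those of the lymphotoxins, tumour necrosis factor (TNF) family ligands that shape lymphoid tissue. Lta (35203165 to 35205351), the secreted form, was at 34.9, 40.7 and 40.1 CPM in NOD and 22.1, 26.4 and 25.1 CPM in NOD.Idd2 (log2 -0.65, SE 0.05, edgeR adjusted p = 2.58e-05 with the block and 0.0761 without). Ltb (35194439 to 35196320), its membrane-bound partner, chosen after its values were seen, was at 356, 333 and 372 CPM and at 442, 425 and 461 CPM (log2 0.32, SE 0.03, edgeR adjusted p = 2.73e-04 with the block and 0.219 without). These neighbours thus moved in opposite directions, and neither overlapped between the strains.

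Tnfrsf21 (43016555 to 43089189), which encodes death receptor 6, rose most among the genes of this chromosome called in the plain fit. It was at 4.08, 4.82 and 3.95 CPM in NOD and 19.03, 20.3 and 18.5 CPM in NOD.Idd2 (log2 2.17, SE 0.10, edgeR adjusted p = 4.13e-04). It was the only call among 18 tested TNF receptor family genes, of which 12 lay above 0. The B cell survival receptor genes Tnfrsf13c and Tnfrsf13b were at 344, 328 and 372 and at 349, 361 and 330 CPM in NOD. In NOD.Idd2 they were at 353, 348 and 386 and at 384, 357 and 385 CPM, with overlap for both.

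Zfp318, chosen after its values were seen, encodes a nuclear protein that B cells need to make IgD from long immunoglobulin transcripts. It was at 409, 408 and 485 CPM in NOD and 618, 660 and 726 CPM in NOD.Idd2 (chromosome 17, 46383731 to 46420920, log2 0.62, SE 0.03, edgeR adjusted p = 3.84e-06 with the block and 0.0978 without). Ighd, the IgD heavy chain gene on chromosome 12, was at 1954, 2083 and 2256 CPM in NOD and 2922, 2693 and 3580 CPM in NOD.Idd2 (log2 0.54, SE 0.05, edgeR adjusted p = 4.72e-04 with the block and 0.364 without). The strains did not overlap for either gene. Ighm, the IgM heavy chain gene that shares its transcript start with Ighd, was at 6701, 6323 and 7756 CPM in NOD and 5865, 5707 and 6510 CPM in NOD.Idd2 and was not called (edgeR adjusted p = 0.0777 with the block).

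Ighd was the only call among 19 B cell identity genes, of which 13 lay above 0 (median log2 0.03). Pax5, the factor that keeps B cell identity, was at 1699, 1636 and 1798 CPM in NOD and 1715, 1654 and 1858 CPM in NOD.Idd2, and the strains overlapped. No gene of the follicular (10 tested), marginal zone (14), transitional (9) or germinal centre (12) B cell lists was called in either fit.

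Among switched immunoglobulin genes the calls went both ways. Ighg3, the IgG3 heavy chain gene, was at 15.4, 15.8 and 22.2 CPM in NOD and 40.0, 24.5 and 35.7 CPM in NOD.Idd2 (log2 0.90, SE 0.12, edgeR adjusted p = 0.00309 with the block and 0.540 without). Igha, the IgA heavy chain gene, was at 60.6, 68.4 and 108 CPM and at 43.9, 54.7 and 76.5 CPM (log2 -0.43, SE 0.04, edgeR adjusted p = 4.65e-04 with the block and 0.840 without). Igha overlapped between the strains, but was lower in NOD.Idd2 within each number, and replicate 3 was the highest in both strains. The Igha call was lost with the term for replicate 3 (0.0512). It was the only call among 21 plasma cell genes, of which 8 lay above 0. The plasma cell gene Jchain was at 208, 153 and 165 CPM in NOD and 195, 139 and 123 in NOD.Idd2 and was not called.

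On other chromosomes Suclg2 and Lxn rose most among named genes. Suclg2 (chromosome 6, 95473009 to 95718800), the GTP-forming subunit of the mitochondrial succinyl-CoA ligase, was at 7.11, 6.54 and 5.08 CPM in NOD and 34.1, 33.5 and 27.6 CPM in NOD.Idd2 (log2 2.34, SE 0.14, edgeR adjusted p = 0.00169). It was the only call among 15 tricarboxylic acid cycle genes, of which 11 lay above 0 (median log2 0.04). Lxn (chromosome 3, 67457998 to 67463926), a carboxypeptidase inhibitor, was at 0.224, 0.271 and 0.141 CPM and at 2.13, 1.29 and 1.80 CPM (log2 3.02, SE 0.31, edgeR adjusted p = 0.0250). Lxn lies inside the called stretch of chromosome 3. The strains did not overlap for either gene. Leaving any 1 library out of the plain fit ended the Lxn call (adjusted p 0.0597 to 0.170), as did limma-voom (0.0573).

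Desi1 (chromosome 15, 81992523 to 82033862), a protease that removes SUMO from proteins, was at 15.6, 15.03 and 14.9 CPM in NOD and 39.5, 42.1 and 44.7 CPM in NOD.Idd2 (log2 1.47, SE 0.06, edgeR adjusted p = 2.52e-04). None of the other 17 SUMO genes was called. Slfn5 (chromosome 11, 82951349 to 82964840), an interferon-inducible Schlafen gene, was at 78.7, 82.5 and 77.7 CPM and at 106, 110 and 103 CPM (log2 0.42, SE 0.04, edgeR adjusted p = 0.0250). Both separated the strains. The Slfn5 call also ended with any 1 library left out of the plain fit (adjusted p 0.0609 to 0.185), and with all 12 libraries in the model (0.537). Desi1, Lxn, Slfn5, Slc37a2, Tmprss13, Ubash3b and Usp2 each overlap a gene on the opposite strand, and with no stated use of strand such reads cannot be told apart. All 15 named genes of the plain fit were called with the block, also with any 1 replicate number left out.

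Genes induced by type I interferon, the antiviral cytokines, lay mostly higher in NOD.Idd2. Of 31 tested genes 28 were above 0, against 52.6% of all genes, with a median log2 of 0.23 beside 0.01. None was called in the plain fit and 3 rose with the block, against 0.0733% and 0.500% of all genes. Values did not overlap for 10 of the 31, all higher, against 6.42% of all genes. Ifi27l2a was at 23.3, 22.5 and 19.4 CPM in NOD and 37.0, 33.4 and 33.4 CPM in NOD.Idd2 (log2 0.68, SE 0.05, edgeR adjusted p = 7.14e-05 with the block and 0.0522 without). It lies beside Ifi27 (chromosome 12, 103434211 to 103440239), which was chosen after its values were seen and was at 19.03, 24.4 and 22.7 CPM and at 31.2, 34.5 and 34.4 CPM (log2 0.60, SE 0.05, edgeR adjusted p = 2.03e-04 with the block and 0.165 without). Both genes separated the strains.

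Ifit1, which binds foreign RNA caps, was at 2.49, 4.06 and 3.01 CPM in NOD and 5.37, 5.60 and 4.94 CPM in NOD.Idd2 (log2 0.75, SE 0.14, edgeR adjusted p = 0.0355 with the block and 0.606 without). Ifit3, its binding partner, was at 5.48, 11.2 and 6.30 CPM and at 12.4, 13.8 and 10.2 CPM (log2 0.71, SE 0.14, edgeR adjusted p = 0.0381 with the block and 0.774 without). NOD replicate 2 was the highest NOD library for both genes, and it overlapped with NOD.Idd2 for Ifit3. With the term for replicate 3 alone Ifi27l2a was still called and these 2 were not (adjusted p = 0.160 and 0.301). With the block both calls were also lost without replicate 1 of both strains (0.256 and 0.138) or without replicate 3 (0.0871 and 0.0752). Ifi213, a DNA sensor gene of the Ifi200 family, was at 6.24, 8.36 and 5.34 CPM and at 21.2, 9.34 and 20.003 CPM (log2 1.30, SE 0.25, edgeR adjusted p = 0.0416 with the block and 0.559 without). NOD.Idd2 replicate 2 lay close to NOD, and the call was lost with the term for replicate 3 (0.0966) and with the block without replicate 1 (0.157) or 3 (0.135).

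Other members were not called in either fit of all B cell libraries. The transcription factor gene Irf7 was at 19.9, 25.1 and 25.3 CPM in NOD and 25.7, 30.7 and 27.4 CPM in NOD.Idd2 (edgeR adjusted p = 0.0732 with the block). With the block Irf7 was called higher without replicate 3 of both strains, but not without replicate 1 or 2. None of 21 interferon gamma response genes was called, and 8 of them lay above 0.

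Ifit1 and Ifit3 are shown for the interferon-stimulated response element in their promoters, with bases in capitals for its core, a GAAA, any 2 bases and another GAAA, as it reads on the opposite strand. The sequences run 5′ to 3′ on the strand of the gene and are from RefSeq on GRCm38.p6, plus strand, chr19:34640744-34640870 for Ifit1 and chr19:34583279-34583528 for Ifit3. The Ifit1 stretch leaves out bases that are annotated as exon.
Ifit1: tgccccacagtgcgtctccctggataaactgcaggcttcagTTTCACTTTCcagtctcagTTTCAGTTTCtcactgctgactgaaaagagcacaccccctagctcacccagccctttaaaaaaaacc
Ifit3: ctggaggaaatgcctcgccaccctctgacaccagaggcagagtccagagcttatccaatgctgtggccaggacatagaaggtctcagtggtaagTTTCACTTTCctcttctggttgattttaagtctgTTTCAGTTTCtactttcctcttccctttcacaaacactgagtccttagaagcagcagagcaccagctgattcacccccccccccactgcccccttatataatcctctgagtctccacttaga

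Both promoters hold the core at 2 places, 104 and 85 bases before the start site of Ifit1 and 156 and 122 bases before that of Ifit3. Of 32851 promoter windows of 250 bases, searched on both strands, 2.98% held it. It was in 10 of 27 windows (37.0%) of the 22 interferon list genes with a window. A match is a description and no measure of factor binding.

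Sterol genes formed another group above 0. Of 20 tested genes of sterol synthesis 17 lay above 0 (median log2 0.11), and of 15 genes of sterol regulation and uptake 13 did (median 0.10). None was called in the plain fit, and 4 of these 35, Srebf2 and Sc5d among them, rose with the block and with the term for replicate 3, against 0.500% and 0.266% of all genes. Values did not overlap, all higher, for 5 of 20 and 3 of 15, against 6.42% of all genes. Srebf2 (chromosome 15, 82147181 to 82205379), the master regulator of cholesterol synthesis, was at 220, 210 and 215 CPM in NOD and 259, 245 and 279 CPM in NOD.Idd2 (log2 0.28, SE 0.04, edgeR adjusted p = 0.00309 with the block and 0.364 without). Its neighbour Shisa8 was at 4.58, 4.82 and 6.49 CPM and at 8.79, 6.55 and 9.26 CPM (log2 0.63, SE 0.11, edgeR adjusted p = 0.0267 with the block and 0.726 without). The Shisa8 call was lost with the term for replicate 3 (0.0813) and with the block without replicate 1 (0.216) or 3 (0.0561). Srebf2 lies in the called stretch that begins with Desi1.

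Sc5d, a late enzyme of the pathway on chromosome 9 (42251595 to 42264256), was at 34.3, 33.8 and 30.9 CPM in NOD and 43.4, 41.2 and 43.4 CPM in NOD.Idd2 (log2 0.37, SE 0.05, edgeR adjusted p = 0.00474 with the block and 0.124 without). Every NOD.Idd2 library lay above every NOD library. In the plain fit without both replicate 3 libraries none of the 4 was called.

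Srebf2 and Sc5d are shown for short elements that have been described for sterol genes. Capitals mark the NF-Y box CCAAT, here on the opposite strand, and in Srebf2 also the letters ATCACCCCA, a sterol element without its last letter, a shortening made after the sequence was read. The sequences are from RefSeq on GRCm38.p6, chr15:82147019-82147180 (plus strand) for Srebf2 and chr9:42264301-42264550 (minus strand) for Sc5d. The Srebf2 stretch leaves out 88 bases that are annotated as exon. The Srebf2 distances below are counted from a RefSeq start at 82147269.
Srebf2: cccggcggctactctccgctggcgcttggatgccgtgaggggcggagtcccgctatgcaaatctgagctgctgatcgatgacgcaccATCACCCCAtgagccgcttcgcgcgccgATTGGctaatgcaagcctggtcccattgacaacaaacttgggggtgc
Sc5d: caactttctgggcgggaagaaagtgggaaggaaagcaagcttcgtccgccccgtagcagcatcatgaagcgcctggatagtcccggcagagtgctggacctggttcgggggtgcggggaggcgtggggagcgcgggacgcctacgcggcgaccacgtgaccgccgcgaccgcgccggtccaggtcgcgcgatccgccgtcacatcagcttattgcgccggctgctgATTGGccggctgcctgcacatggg

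The shortened sterol element lies 163 bases before the Srebf2 start and was in 0.240% of all windows. With its last letter, a C, it was in 0.0731%. The shortened form was in 0 of 18 windows of the sterol synthesis list. In the regulation and uptake list it was in 1 of 17, that of Srebf2. The full form was in 0 windows of both lists. The NF-Y box lies 135 bases before the start of Srebf2 and 24 before that of Sc5d. It was in 33.8% of all windows, in 14 of 18 windows (77.8%) of the sterol synthesis list and in 8 of 17 (47.1%) of the regulation and uptake list.

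Cell cycle genes lay above 0 for 28 of 30 (median log2 0.20), against 52.6% of all genes. The 1 that rose with the block was Nusap1, which bundles spindle microtubules. It was at 2.51, 2.46 and 2.07 CPM in NOD and 4.31, 5.41 and 3.23 CPM in NOD.Idd2 (log2 0.86, SE 0.14, edgeR adjusted p = 0.0184 with the block and 0.543 without), and its call with the block was lost without replicate 1 (0.0894). Values of 6 of the 30 did not overlap, all higher, against 6.42% of all genes. The proliferation marker gene Mki67 was at 42.5, 44.2 and 43.7 CPM in NOD and 58.3, 62.7 and 41.7 CPM in NOD.Idd2. NOD.Idd2 replicate 3 was the lowest of all 6, so the strains overlapped, and Mki67 was called in neither fit. With both replicate 3 libraries left out of the plain fit Mki67 was called higher. In that fit 29 of the 30 genes lay above 0 (median log2 0.29). Cdkn2c, an inhibitor of cyclin-dependent kinases that halts the cycle, rose with the block as well, at 3.64, 4.03 and 3.69 CPM and at 6.58, 5.31 and 5.80 CPM (log2 0.64, SE 0.12, edgeR adjusted p = 0.0388, and 0.318 without the block). The Cdkn2c call was lost with the term for replicate 3 (0.0808) and with the block without replicate 1 (0.309) or 3 (0.135).

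Genes of the unfolded protein response lay mostly below 0, with 5 of 23 above (median log2 -0.06). The 1 that was called, with the block, was Hsp90b1, an endoplasmic reticulum chaperone of the Hsp90 family. It was at 1031, 974 and 1113 CPM in NOD and 890, 868 and 916 CPM in NOD.Idd2 (log2 -0.22, SE 0.04, edgeR adjusted p = 0.0145 with the block and 0.606 without). The call was lost with the term for replicate 3 (0.0754) and with the block without replicate 1 (0.116). Values of 9 of the 23 genes did not overlap and were lower in NOD.Idd2, against 6.40% of all genes. Among the 9 was Hspa5, the main chaperone of that compartment, at 807, 782 and 787 CPM and at 728, 737 and 720 CPM, which was not called.

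**Figure D5:**
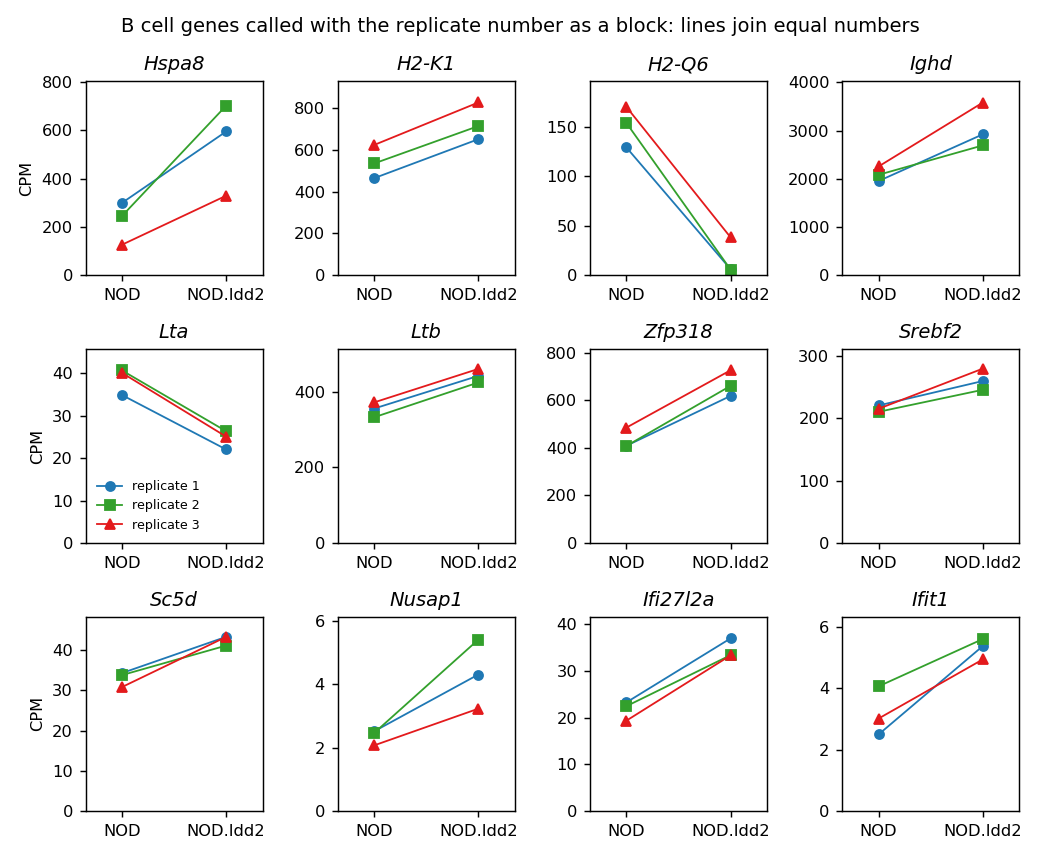
CPM (y axis, from 0) of 12 genes called with the replicate block in each strain (x axis), with lines joining libraries that carry the same replicate number. Lines of a gene run in 1 direction, while their height differs by number, as for Hspa8 (replicate 3 at 127 and 330 CPM).

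Transcripts of other leukocytes were present at low levels. No gene of the natural killer, neutrophil, monocyte or T cell lists was called in the plain fit or with the term for replicate 3. All 12 natural killer genes lay below 0 (median log2 -0.42), as did all 7 tested neutrophil genes (median -1.17) and all 7 tested monocyte genes (median -0.38). With the block the neutrophil median was -0.51 without replicate 1 of both strains and -1.49 without replicate 2. Gzma, a granule protease of natural killer cells, was at 10.008, 6.72 and 6.07 CPM in NOD and 5.47, 3.05 and 4.09 CPM in NOD.Idd2 (log2 -0.85, SE 0.12, edgeR adjusted p = 0.00605 with the block and 0.750 without). Lyz2, the lysozyme of myeloid cells, was at 21.97, 15.8 and 15.4 CPM and at 14.5, 12.0 and 11.9 CPM (log2 -0.46, SE 0.07, edgeR adjusted p = 0.00655 with the block and 0.750 without). Chil3, a secreted lectin of myeloid cells, was at 3.72, 1.25 and 1.58 CPM and at 0.520, 0.381 and 0.819 CPM (log2 -1.84, SE 0.32, edgeR adjusted p = 0.0202 with the block and 0.606 without). None of the 3 overlapped between the strains. With the term for replicate 3 alone their adjusted p was 0.165 to 0.202, and with the block without replicate 1 it was 0.0569 for Gzma, 0.108 for Lyz2 and 0.178 for Chil3.

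Neutrophil genes summed to 9.004 to 31.3 CPM in NOD and 8.56 to 12.4 in NOD.Idd2, and monocyte genes to 29.7 to 42.7 and 22.7 to 29.2. The neutrophil marker gene Ly6g was near the limit of detection, at 0.0246 to 0.141 CPM in NOD and 0.0715 to 0.117 in NOD.Idd2. The monocyte marker genes Ccr2 and Csf1r were at 5.31 to 8.19 and 3.20 to 4.35 CPM in NOD. In NOD.Idd2 they were at 3.88 to 7.52 and 2.55 to 3.29 CPM, with overlap for both, and neither was called. Of 19 tested T cell genes 16 were above 0, with a median log2 of 0.22. With the block the median was 0.11, and it was -0.30 with 1 of 19 above 0 without replicate 1 of both strains and 0.62 with 19 of 19 above 0 without replicate 2. NOD.Idd2 replicate 1 was high and replicate 2 low, as for Cd3e at 9.58, 2.98 and 6.53 CPM against 5.70, 7.55 and 6.30 in NOD. Adgre1, the macrophage antigen known as F4/80, rose with the block from 17.0, 16.2 and 21.0 CPM to 24.4, 21.2 and 29.1 CPM (log2 0.46, SE 0.05, edgeR adjusted p = 0.00145, and 0.750 without the block), while C1qa, another macrophage gene, was at 0.561 to 1.06 and 0.619 to 1.10 CPM. Of the 10 tested red pulp macrophage genes 3 lay above 0 and 7 below (median log2 -0.11), and only Adgre1 was called. In the plain fit without both replicate 3 libraries 7 of the 10 lay above 0 (median log2 0.085). The list, Adgre1 included, summed to 44.7 to 50.5 CPM in NOD and 51.6 to 55.7 in NOD.Idd2. The part of these admixed transcripts in the other strain differences was not tested.

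Among the remaining genes named by size of change with the block, Clec12a, an inhibitory lectin receptor mostly of myeloid cells, rose from 5.90, 4.77 and 5.64 CPM to 10.4, 9.20 and 9.19 CPM (log2 0.82, SE 0.09, edgeR adjusted p = 0.00111). Il9r, the receptor for interleukin 9, fell from 336, 370 and 279 CPM to 201, 286 and 221 CPM (log2 -0.48, SE 0.06, edgeR adjusted p = 0.00362). Il9r overlapped between the strains, since NOD.Idd2 replicate 2 was above NOD replicate 3. H60b, a ligand of the natural killer receptor NKG2D, fell from 28.4, 33.2 and 25.4 CPM to 20.9, 20.4 and 18.2 CPM (log2 -0.55, SE 0.06, edgeR adjusted p = 0.00111). It forms a run on chromosome 10 with 2 further called genes with provisional symbols. Of those 2 genes 1 overlaps H60b on the opposite strand, and uncalled genes overlap it on the same strand, so reads may be shared. Naip5, an inflammasome sensor of flagellin, fell from 17.1, 26.9 and 27.3 CPM to 13.1, 18.4 and 15.2 CPM (log2 -0.60, SE 0.08, edgeR adjusted p = 0.00309). The decoy chemokine receptor gene Ackr3 fell from 14.6, 17.0 and 10.4 CPM to 9.53, 11.6 and 9.12 CPM (log2 -0.46, SE 0.09, edgeR adjusted p = 0.0381). For Naip5 and Ackr3 the strains overlapped. None of these 5 was called in the plain fit (adjusted p 0.0834 to 0.765). The calls of Naip5 (0.252), Ackr3 (0.189) and Il9r (0.148) were lost with the term for replicate 3, and that of Ackr3 also with the block without replicate 1 (0.253) or 2 (0.0546).

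Fras1, an extracellular matrix gene, was at 17.97, 19.3 and 16.4 CPM in NOD and 8.64, 13.1 and 12.0 CPM in NOD.Idd2 (log2 -0.68, SE 0.10, edgeR adjusted p = 0.00779 with the block and 0.540 without). Ogfrl1 was at 16.0, 17.3 and 15.4 CPM and at 12.4, 9.25 and 9.73 CPM (log2 -0.64, SE 0.09, edgeR adjusted p = 0.00684 with the block and 0.331 without). Cul7, a scaffold of a ubiquitin ligase, was at 10.4, 10.7 and 10.6 CPM and at 7.005, 7.03 and 8.98 CPM (log2 -0.46, SE 0.09, edgeR adjusted p = 0.0464 with the block and 0.575 without). All 3 separated the strains and fell with the block, and with the term for replicate 3 only Ogfrl1 was called (adjusted p = 0.0227). The Cul7 call with the block was lost without replicate 1 (0.259) or 2 (0.0575). No gene was called in either fit on the lists of Toll-like receptor signalling, NF-kB targets, immediate early genes, glycolysis, oxidative phosphorylation, the Bcl2 family, B1 and age-associated B cells, dendritic cells, erythroid cells or platelets. Of 29 oxidative phosphorylation genes 27 lay above 0 (median log2 0.05), against 52.6% of all genes. Of 16 NF-kB target genes 4 did (median log2 -0.03), and of 6 tested erythroid genes 0 did (median -0.40). In the plain fit without both replicate 3 libraries 3 of the 6 erythroid genes lay above 0 (median log2 -0.012). The erythroid list summed to 114 to 126 CPM in NOD and 114 to 116 in NOD.Idd2.

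The difference of strain effects between dendritic cells and B cells was called for 18 of 16588 genes (0.109%) in a model of all 12 libraries, 10 higher (0.0603%) and 8 lower (0.0482%). Of the 15 named genes of the plain B cell fit 6 were among them. In dendritic cells Tnfrsf21, which rose in B cells, averaged 74.5 ± 4.80 CPM for NOD and 49.7 ± 2.83 CPM for NOD.Idd2 (SD, n = 3), so that the effects ran in opposite directions. For the other 9 genes no difference between the cell types was called, which does not show equal effects. In dendritic cells Jhy had 134 counts in NOD and 0 in NOD.Idd2, and Tmprss13 had 0 and 5, so the test says little for them. Depth was uneven there: NOD.Idd2 dendritic replicate 3 held 8663421 counts, and the other dendritic cell libraries 22769062 to 30337812. For Lxn the log2 difference, dendritic cells minus B cells, was -1.79 (SE 0.35, edgeR adjusted p = 0.122). The B cell libraries carried Xist and the dendritic cell libraries Y-linked transcripts, so cell type and sex cannot be told apart here.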

How the data were processed

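Per the labels' protocols, RNA was extracted with Trizol and poly(A) libraries were prepared with KAPA HyperPrep reagents. The authors deposited raw counts per gene symbol. The submitters' processing notes name STAR, version written as 0.12.2, and GRCm38. What counted the reads, with which annotation and strand setting, is not given in the sources used here. A deposited table of normalized counts was not used.

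Samples were grouped by title. Of 28188 symbols 27693 were placed by GENCODE and 377 by RefSeq gene models on GRCm38, 43 were ambiguous and 75 unmatched. The 6 B cell libraries held 40344883 to 44632276 counts. CPM and fits used edgeR 4.0.16 in R 4.3.3 with TMM scaling and filterByExpr (minimum count 10, minimum total 15), and adjusted p-values are from the quasi-likelihood test of edgeR unless another tool is named, with Benjamini-Hochberg adjustment over all genes tested and a threshold of 0.05. The scripts were tested on simulated data. The alternatives were the replicate block, a term for replicate 3, DESeq2 1.42.0, limma-voom 3.58.1, RLE size factors, other filters, all 12 libraries and libraries left out.

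The labels state no pairing of the replicate numbers. Deviations from the strain means correlated at 0.617, 0.410 and 0.815 between libraries of the same number over 15011 genes. Across numbers the values were 0.433 (replicate 1 of NOD, 2 of NOD.Idd2) and 0.470 (2 of NOD, 1 of NOD.Idd2), so only replicate 3 is told apart, and the block takes all 3 numbers as pairs. No libraries of a strain agreed within sampling noise (chi-square per gene 7.93 to 47.1).

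Genes were named by rule: every plain-fit call with a settled symbol; with the block, the 10 largest increases and decreases at 5 CPM or more; up to 4 called members of each list; and the 8 largest changes each way for replicate 3. Runs join called genes whose starts lie within 5 Mb. The gene lists and the members were chosen with earlier results of these data known, and the lists carry no test. Promoter windows were found for 32 of 47 named genes. Some of the genes so named are left out of the text.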

Additional observations from a re-analysis of the deposited data

Results flagged for a closer look

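For 6 genes called between the strains in B cells, the strain effect differed between dendritic cells and B cells by edgeR's quasi-likelihood test of that difference. The differences below are log2, dendritic cells minus B cells. In Tnfrsf21 the difference was -2.76 (adjusted p = 1.58e-07), with B cells rising by 2.17 and dendritic cells at -0.59. In Usp2 it was 3.72 (adjusted p = 0.00305), and dendritic cells averaged 0.354 ± 0.0128 CPM for NOD and 0.369 ± 0.0293 CPM for NOD.Idd2 (SD, n = 3). In Crtam it was 2.71 (adjusted p = 0.0398), at 1.03 ± 0.249 and 0.492 ± 0.115 CPM in dendritic cells. In Ubash3b it was 1.30 (adjusted p = 0.00375), at 32.5 ± 2.15 and 33.6 ± 2.62 CPM in dendritic cells. In Nxpe4 it was 1.96 (adjusted p = 0.0388), at 2.92 ± 0.429 and 83.2 ± 2.27 CPM, and in Desi1 0.74 (adjusted p = 0.0398), at 6.12 ± 0.865 and 28.6 ± 0.866 CPM. In the alternative fits a call among these genes was lost 2 times. Cell type and sex cannot be told apart in these differences.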

How the results depend on the processing

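The count of 24 genes called between the strains depended on the fit. It was 156 with the replicate block, 74 with a term for replicate 3 and 46 without replicate 3 of both strains, and in each of these the 24 genes were all kept. It was 77 with DESeq2 and 42 with all 12 libraries in the fit, while limma-voom gave 24, RLE factors 25, leaving low counts in 35 and a filter at 1 CPM in 3 libraries 23. Leaving out 1 library in turn gave 13 to 18 genes: NOD replicate 2 (15 without it), NOD.Idd2 replicate 1 (13) and NOD.Idd2 replicate 2 (14) moved it most. With the replicate block, leaving out a number in both strains gave 82 (replicate 1), 578 (replicate 2) and 133 (replicate 3), of which 74, 150 and 105 were among the 156. Of the 15 named genes 11 were called whichever library was left out of the plain fit. The 2356 genes of the replicate 3 comparison became 1507 with DESeq2. The 18 genes that differed between cell types became 56 with the replicate block within each cell type and 33 with no filter on low counts. Without replicate 3 of both strains in B cells 18 were called, of which 14 were among the first 18. The cause of these moves was not tested. Depth was alike across the B cell libraries, and genes under about 1 CPM, such as Tmprss13, Nxpe4 and Lxn in NOD, rest on 18 to 28 counts over 3 libraries.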
